A study of Arabidopsis thaliana with 4 samples.

Results

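Transcripts of 10 auxin genes were followed in shoot apices of Arabidopsis thaliana. They were 7 Aux/IAA genes named IAA and a number (IAA18, IAA20, IAA29, IAA30, IAA31, IAA33 and IAA34), the 2 GH3 genes GH3.3 (AT2G23170) and WES1 (AT4G27260, also called GH3.5), and the YUCCA gene YUC4 (AT5G11320). They were chosen by symbol and locus from 13356 genes with a probe set that the platform annotation matched to that gene alone. Each of the 10 had 1 such probe set. Other measured GH3 and YUC genes are given further below, and the choice was made with earlier results of these data known. All plants were Ws-0 seedlings carrying 35S:LEC1-GR, the embryo regulator LEC1 joined to the hormone-binding domain of the glucocorticoid receptor (GR), which holds the fusion protein inactive until dexamethasone is given. The 35S promoter is active in most tissues, so the fusion is not limited to the embryo cells in which LEC1 normally acts. Seedlings aged 8 days, grown at 20 °C with 16 h of light and 8 h of dark, spent 1 h in liquid medium with 1% sucrose, and the apices were then cut out and frozen. The medium held 30 µM dexamethasone for 2 arrays and none for the other 2, and the series' design text calls the 2 samples of each group biological replicates.

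Auxin acts by bringing Aux/IAA repressor proteins to TIR1/AFB receptors, which mark them for breakdown and so free the ARF transcription factors. Many Aux/IAA and GH3 genes are themselves ARF targets that respond to auxin quickly, and GH3 enzymes join auxin to amino acids and thereby lower its free level. YUC enzymes carry out the last step of auxin synthesis from tryptophan. IAA20, IAA30, IAA33 and IAA34 encode unusual Aux/IAA proteins that lack the degron through which auxin destabilizes the others. LEC2, a regulator of the same embryo programme as LEC1, is known to activate YUC2, YUC4 and IAA30 in Arabidopsis, and IAA29 is a known target of the PIF light-signalling factors.

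The values are log2 RMA expression values, 1 per probe set and array, and differences are dexamethasone minus none on that scale. The 2 arrays per group and the spread between them limit the precision, and array signals have no read depth to report. The control level of an array is its highest value among 27 probe sets for Bacillus control transcripts, and it ranged from 4.68 to 4.86. A probe set was called where limma's two-sided test had a Benjamini-Hochberg adjusted p below 0.05 over all 22746 tested probe sets. Across probe sets, the correlation of arrays was 0.983 in the untreated pair, 0.992 in the dexamethasone pair and 0.969 to 0.979 between groups. LEC1 itself was not analysed here, so neither the transcript of the fusion nor the activation of its protein was checked. No plants without the fusion were given dexamethasone here, so an effect of dexamethasone itself and one of LEC1-GR cannot be told apart. Of the shoot apex markers 2 of 11 were measured. The leaf polarity gene YAB3 exceeded the control level throughout, and the stem cell gene CLV3 did so in 1 array.

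**Figure D1:**
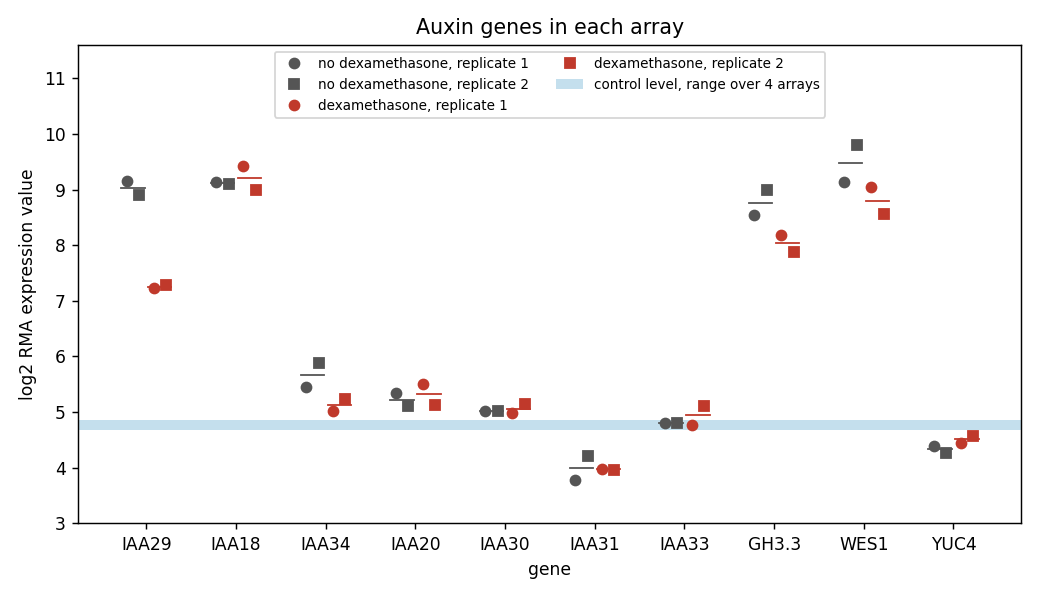
Log2 RMA expression values of the 10 auxin genes in each of the 4 arrays, with a short line at each group mean and a band for the control level of 4.68 to 4.86. IAA29 is the gene whose 2 groups stand furthest apart, IAA31 and YUC4 lie below the band, and heights are not comparable between genes.

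IAA29 fell with dexamethasone. Its probe set (locus AT4G32280) read 9.16 and 8.90 in the untreated arrays and 7.22 and 7.28 in the dexamethasone arrays. Both dexamethasone arrays lay below both untreated arrays, and the nearest pair across groups was 1.62 apart, against gaps of 0.26 and 0.05 between the replicates of each group. The group means were 9.03 ± 0.19 and 7.25 ± 0.04 (SD, n = 2), a 3.43-fold lower level. The difference was -1.78 ± 0.15 (SE), with a 95% interval of -2.15 to -1.41 (limma adjusted p = 0.0231). It was the 1 called gene of the 10, in a comparison that called 2.37% of all probe sets, 1.49% as higher and 0.879% as lower. By size of difference it ranked 49 among all falls, and 99.2% of the tested probe sets differed by less in either direction. All 4 arrays stood well above the control level, so the fold is not limited by background.

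The call for IAA29 depended on which pair supplied the spread, while its size did not. Without untreated replicate 1 the difference was -1.65 (limma adjusted p = 0.015), and without untreated replicate 2 it was -1.91 (limma adjusted p = 0.0308). Without dexamethasone replicate 1 or 2 it was -1.75 or -1.81, with limma adjusted p = 0.234 or 0.206. Those fits take their spread from the untreated pair and call 0 of all 22746 probe sets, although 2672 and 2448 have an unadjusted p below 0.05.

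**Figure D2:**
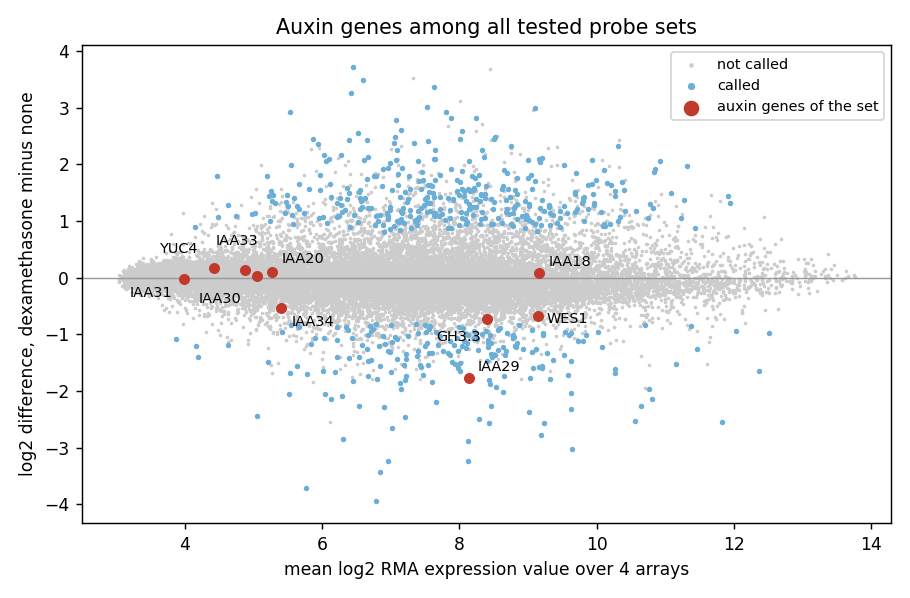
Log2 difference (dexamethasone minus none) against the mean log2 RMA expression value over 4 arrays for the 22746 tested probe sets, with called ones in blue and the 10 auxin genes in red. IAA29 at -1.78 lies among the called falls, GH3.3, WES1 and IAA34 lie between -0.73 and -0.54, and the other 6 lie near 0.

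The remaining Aux/IAA genes gave no call. IAA18, which encodes an Aux/IAA repressor with a degron, read 9.14 and 9.11 without and 9.42 and 8.995 with dexamethasone. Its groups overlapped, and the difference of 0.09 ± 0.18 had a 95% interval of -0.37 to 0.55 (limma adjusted p = 0.889). All 4 arrays stood well above the control level, and a fall as large as that of IAA29 lies outside this interval. The intervals of IAA29 and IAA18 do not overlap, and a test of the difference between them was not made.

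The genes for Aux/IAA proteins without the degron had dim signals. IAA34 read 5.46 and 5.89 without dexamethasone and 5.02 and 5.24 with it. Its groups did not overlap, by a margin of 0.22, and the difference was -0.54 ± 0.19 (95% interval -1.03 to -0.05, limma adjusted p = 0.251). IAA20 read 5.33 and 5.11 against 5.51 and 5.13, a difference of 0.10 (95% interval -0.37 to 0.57). IAA30, the known LEC2 target, read 5.02 in both untreated arrays and 4.99 and 5.13 with dexamethasone. Its difference was 0.04 (95% interval -0.29 to 0.36, limma adjusted p = 0.936). These 3 genes stood above the control level in all 4 arrays, by at most 1.02 for IAA34, 0.77 for IAA20 and 0.35 for IAA30. The dexamethasone values of IAA34, 5.02 and 5.24, lay close to the control levels of their arrays, 4.74 and 4.79, so background may limit its difference. A fall of IAA30 could hardly show so near the control level, so its interval sets no limit on one.

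IAA33 and IAA31 lay at or under background. IAA33 read 4.81 in both untreated arrays and 4.77 and 5.11 with dexamethasone, and its untreated replicate 2 was below the control level of that array. IAA31 read 3.79 and 4.20 without and 3.98 and 3.96 with dexamethasone, below the control level in all 4 arrays. Their differences of 0.13 and -0.02 therefore carry little information on these transcripts. The 6 Aux/IAA genes other than IAA29 had a median difference of 0.06, beside -0.02 for all tested probe sets.

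Both GH3 genes of the set read lower with dexamethasone in all arrays, without passing the test. GH3.3 encodes an enzyme that joins auxin to aspartate and other amino acids. It read 8.54 and 8.99 in the untreated arrays and 8.19 and 7.88 in the dexamethasone arrays. The groups did not overlap, with 0.35 between the nearest pair, but the untreated replicates themselves were 0.46 apart. The difference was -0.73 ± 0.21 (95% interval -1.26 to -0.19, unadjusted p = 0.0173, limma adjusted p = 0.170). WES1, an enzyme of the same family that acts on auxin and on salicylic acid, read 9.14 and 9.81 untreated and 9.04 and 8.56 with dexamethasone. Here the nearest pair was 0.10 apart and the untreated replicates 0.66 apart, a gap exceeded by 7.08% of all probe sets. The difference was -0.67 ± 0.28 (95% interval -1.40 to 0.05, limma adjusted p = 0.325).

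The size of both GH3 differences depended on the arrays numbered 2. Between the arrays numbered 1, GH3.3 differed by -0.35 and WES1 by -0.10, and between those numbered 2 by -1.11 and -1.25. Without untreated replicate 2 the fitted differences were -0.50 and -0.34, without dexamethasone replicate 2 they were -0.57 and -0.43, and without untreated replicate 1 they were -0.96 and -1.01. None of these fits called either gene. No probe set of such a size was called anywhere on the arrays. Of 1007 probe sets with an absolute difference from 0.6 up to 0.8, limma called 0, although 803 had an unadjusted p below 0.05, and the unmoderated test called 0 of all probe sets. The smallest absolute difference of any called probe set was 0.81.

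GH3.3, WES1 and IAA34 were highest in untreated replicate 2, and so were 4 of the 5 measured root markers (of 9 listed). The summed linear level of all 5 was 3129 in untreated replicate 1, 5158 in untreated replicate 2, and 3709 and 4220 with dexamethasone. PYK10 made up at least 96.2% of each sum. The root hair expansin gene EXPA7 read 5.03 and 6.25 untreated and 4.59 and 4.97 with dexamethasone, and EXPA18 read 4.86 and 6.46 against 4.98 and 5.20. In the dexamethasone pair the likeness did not hold for GH3.3 and WES1, which were lower in replicate 2 while the root sum was higher there. It did hold for IAA34, which read 5.02 in dexamethasone replicate 1 and 5.24 in replicate 2. PYK10, a beta-glucosidase gene of roots and hypocotyls, ranged from 11.57 to 12.28 over the 4 arrays, while the other 2 root markers, AGL21 and AGL42, did not exceed the control level anywhere. The part of root tissue in the GH3 and IAA34 values was not tested. In dissected apices, fewer cells of a type and less RNA per cell cannot be told apart.

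IAA29 did not follow that pattern, since its untreated replicate 2 was the lower of the pair. Among leaf and cotyledon markers, 2 of 4 were measured, and their summed linear level was 15214 and 14102 untreated against 12966 and 12840 with dexamethasone. PORB, of chlorophyll synthesis, made up that drop with a difference of -0.85 ± 0.28 (limma adjusted p = 0.218), while the antenna gene LHCB4.1 had a difference of 0.03. The summed level of the 2 measured shoot apex markers was 242 and 258 untreated and 249 and 226 with dexamethasone. The part of tissue composition in the fall of IAA29 was not tested.

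YUC4, the auxin synthesis gene, read 4.39 and 4.27 untreated and 4.44 and 4.58 with dexamethasone. All 4 values lay below the control level of their arrays. The difference of 0.18 ± 0.13 (95% interval -0.16 to 0.52, limma adjusted p = 0.608) therefore gives no level for this gene, although its dexamethasone arrays lay above the untreated ones by 0.05.

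Over the 10 genes, 1 fell, 0 rose and 9 were not called by limma. Of those 9, GH3.3 and IAA34 had an unadjusted p below 0.05 in limma, as did 3902 of all 22746 tested probe sets. The groups did not overlap in 5 of the 10 genes, 4 of them lower and 1 higher. Among all tested probe sets the groups did not overlap in 47.2%, with 24.8% lower and 22.3% higher. The differences split into 5 above and 5 below 0, and their median was 0.01, beside -0.02 for all probe sets. With 1 array left out that median ran from -0.11 to 0.01, so its sign is not settled. The 4 genes with a mean above that of the median probe set (IAA29, IAA18, GH3.3 and WES1) had a median difference of -0.70, beside -0.06 for all probe sets above it, and IAA18 was the 1 above 0. That median of -0.70 rests on GH3.3 and WES1, the middle genes by difference, neither of them called. The 6 dimmer genes had a median of 0.07, beside 0.0053 for all dimmer probe sets, and IAA34 stood at -0.54 among them.

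**Figure D3:**
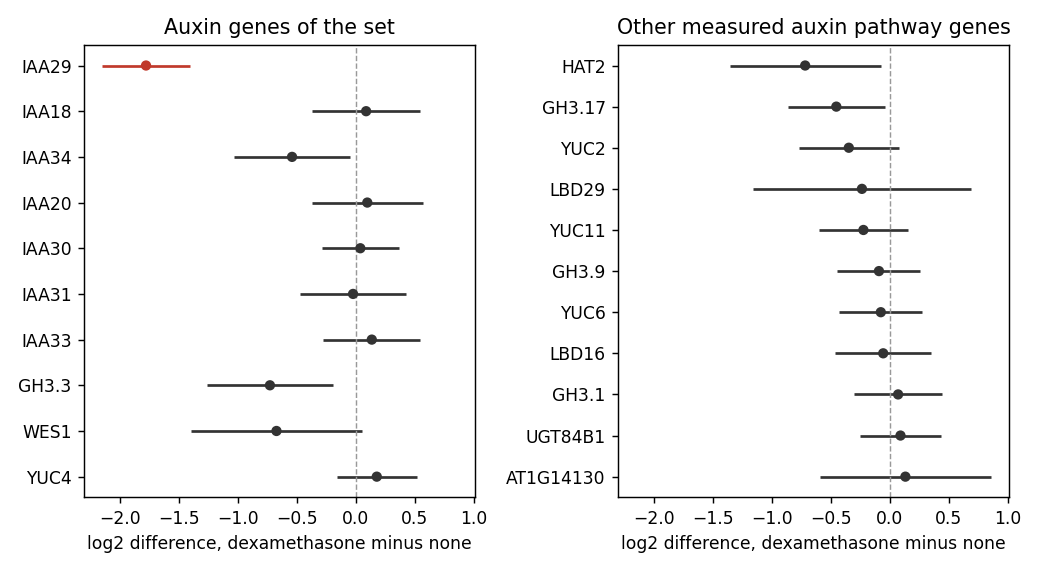
Log2 differences (points) with limma's 95% intervals (lines) for the 10 auxin genes, left, and for the 11 other measured auxin pathway genes, right, with the called gene in red. IAA29 is the 1 called gene. The intervals of GH3.3, IAA34, HAT2 and GH3.17 also lie below 0, but none of these genes passed the adjusted threshold. Over all 22746 tested probe sets, 3902 had an unadjusted p below 0.05 in limma.

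Other genes of the auxin pathway gave no call. Of 197 further genes in the auxin lists, 11 had a probe set matched to them alone, and limma called 0 of the 11 in either direction. HAT2 and GH3.17 had an unadjusted p below 0.05 in limma, beside 3902 of all 22746 tested probe sets. These 11 genes had a median difference of -0.09, with 8 below and 3 above 0, where 53.1% of all tested probe sets lay below 0. The groups did not overlap in 4 of the 11, all of them lower, beside 24.8% of all probe sets. The lists for auxin receptors, ARF factors, auxin transport, PIF and shade genes and SAUR growth genes had 0 measured members. Of the 29 Aux/IAA genes listed, 22 were not analysed here.

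Among the responsive genes, HAT2, an auxin-induced homeodomain-leucine zipper gene of shade responses, read 10.32 and 9.75 untreated and 9.52 and 9.12 with dexamethasone. Its groups did not overlap, and its difference was -0.72 ± 0.25 (95% interval -1.36 to -0.08, limma adjusted p = 0.241). HAT2 was lower in untreated replicate 2 than in replicate 1. With 1 array left out its difference ran from -1.004 to -0.43, the latter without untreated replicate 1. The lateral organ boundary genes LBD16 and LBD29, known from lateral root formation, stood at -0.06 and -0.24 (limma adjusted p = 0.923 and 0.831). LBD29 read 4.56 and 5.63 in the untreated arrays, a wider gap than the dexamethasone arrays, 4.76 and 4.95, showed.

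Of the other GH3 genes, GH3.17, whose product joins auxin to glutamate, read 7.96 and 8.18 untreated and 7.48 and 7.75 with dexamethasone. The difference was -0.45 ± 0.16 (95% interval -0.86 to -0.04, limma adjusted p = 0.246). Its groups did not overlap, as in 24.8% of all probe sets with dexamethasone lower. GH3.1 and GH3.9 lay below the control level in all 4 arrays.

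Of the synthesis genes, YUC2, known like YUC4 as a LEC2 target, read 7.04 and 6.71 untreated and 6.45 and 6.60 with dexamethasone. The difference of -0.35 ± 0.17 (95% interval -0.77 to 0.07, limma adjusted p = 0.383) did not pass the test, and it ran from -0.51 to -0.18 with 1 array left out. YUC6 had a difference of -0.08, and YUC11 lay below the control level in all arrays. Of the inactivation genes, DAO1 (AT1G14130), which oxidizes auxin, stood at 0.13 with a wide 95% interval of -0.60 to 0.86, and the glucosyltransferase gene UGT84B1, at 0.09, lay below the control level throughout.

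The genes with the pattern nearest to IAA29 were taken by Euclidean distance over the 4 arrays, each gene centred on its mean, among 1525 genes with a symbol other than a locus code. They were THIC, GID1A, AKINBETA1, P1R3 and UGT73B1, at distances of 0.33 to 0.58. The nearest, THIC, a gene of thiamine synthesis, read 10.15 and 10.27 untreated and 8.54 and 8.32 with dexamethasone. Its difference of -1.78 ± 0.14 (limma adjusted p = 0.0228) was the same size as that of IAA29. The gibberellin receptor gene GID1A stood at -1.54 and AKINBETA1, which encodes a subunit of the SnRK1 energy-sensing kinase, at -1.60. P1R3 read 6.33 and 6.75 untreated and 4.54 and 4.45 with dexamethasone. Both dexamethasone values lay below the control level, so background limits its difference of -2.05. UGT73B1, a glucosyltransferase gene, read 6.51 and 7.26 with dexamethasone and was not called (-1.47, limma adjusted p = 0.0743). With 4 arrays in 2 groups this likeness says little more than that the genes differ by a similar amount.

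**Figure D4:**
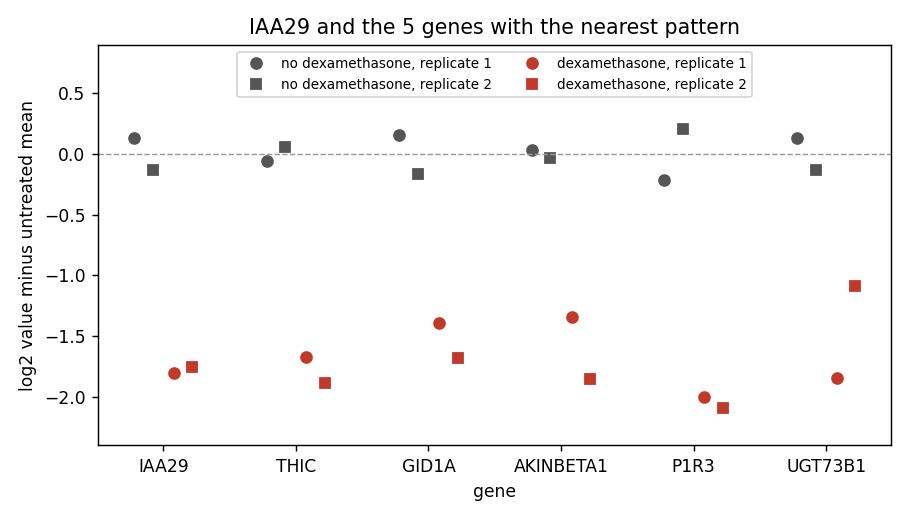
Log2 values of IAA29 and the 5 genes nearest in pattern, each minus its own untreated mean, in the 4 arrays. All dexamethasone arrays lie below all untreated arrays for each gene, and the dexamethasone replicates lie 0.05 apart in IAA29 and 0.75 apart in UGT73B1.

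Leaving out arrays separated the genes by how much 1 array weighed. IAA29 ranged from -1.91 to -1.65, GH3.3 from -0.96 to -0.50, IAA34 from -0.76 to -0.32 and WES1 from -1.01 to -0.34, all below 0. YUC4 ranged from 0.11 to 0.25. The groups of these 5 genes did not overlap, as in 47.2% of all tested probe sets. Leaving out 1 array could therefore not turn their signs, and only the sizes are informative. IAA18, IAA20, IAA30, IAA31 and IAA33 each took both signs.

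**Figure D5:**
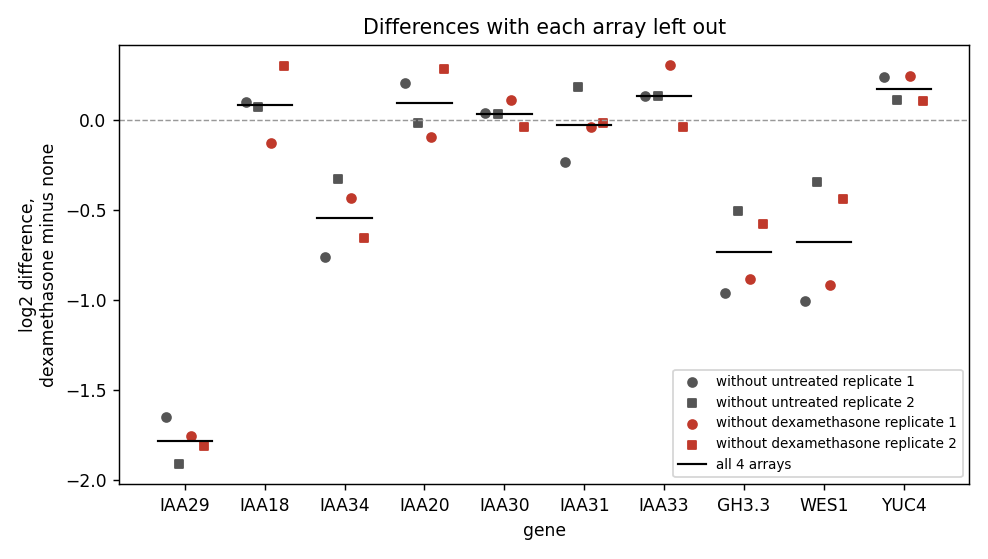
Log2 difference of each auxin gene with all 4 arrays (line) and with each array left out in turn (points). IAA29 stays between -1.91 and -1.65, the 2 GH3 genes and IAA34 stay below 0 but are nearest to 0 without untreated replicate 2, and 5 Aux/IAA genes cross 0.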

How the data were processed

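The authors deposited log2 expression values, 1 per probe set and array, made with RMA and the affy package per the submitters' processing notes. Their versions and any filters or array quality checks are not stated in the sources used here. RMA sets arrays to a common distribution, so a shift shared by all transcripts cannot be seen. Of 22810 probe sets, 64 controls were left out and 22746 tested. Of these, 13513 matched 1 gene, 503 several, and 8730 are unnamed here. Symbols came from the reference gene table (TAIR10.1), and no coordinates are given because no build is named for the values. A gene with several probe sets took the one with the highest mean. Groups came from the sample titles. The fit used limma 3.58.1 in R 4.3.3 (lmFit, eBayes, prior degrees of freedom 3.09), with no block. Errors of means are SDs and those of differences limma's standard errors. The fit was tested on simulated data. The genes and lists were chosen with earlier results of these data known. Named genes were all members, up to 4 called genes per list or else the 2 with the smallest p, and the 5 genes nearest to IAA29; further measured list genes were named after their values were seen. Alternatives were a replicate block, dim filters, scalings, other variance settings, thresholds, a floor at the control level and leaving out arrays. The planned sequence searches were not run, as no sequences were used here.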

Additional observations from a re-analysis of the deposited data

How the results depend on the processing

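IAA29 kept its call in 11 of the 15 alternatives tested. It kept its direction in all 15, but most of them leave the difference itself unchanged. Leaving out 1 array cannot turn the sign of a gene whose groups do not overlap. The call ended at an adjusted p threshold of 0.01 (-1.78, limma adjusted p = 0.0231), in the unmoderated test (-1.78, adjusted p = 0.334) and without either dexamethasone array. The count of called members lower, 1 in the main result, was 0 at the 0.01 threshold and 0 in the unmoderated test, and 0 to 1 when 1 array was left out. GH3.3, WES1, IAA34 and YUC4, whose groups do not overlap either, kept direction and stayed uncalled in every alternative that held them. Over all probe sets limma called 339 higher and 200 lower. The replicate block raised this to 559 and 300 calls, 532 of them shared with the fit without it, and IAA29 had limma adjusted p = 0.021. The block changed no call among the 10 genes or the 11 pathway genes. HAT2 stayed uncalled with the block, at limma adjusted p = 0.068 beside 0.241 without it. The deviations of equal-numbered arrays correlated at 0.227 over 2 pairs, which does not settle whether the numbers mark pairs. The main fit used no block. Counts were 0 and 0 in the unmoderated test (2580 had an unadjusted p below 0.05), 0 and 0 at the 0.01 threshold in limma (3902), and in a test of the probe sets that match 1 gene, with fewer entered, 172 and 101. With 1 array left out, limma's counts ran from 0 to 734 for higher and from 0 to 458 for lower probe sets, the lone array being assumed to vary like the other group. Differences then ran from -0.13 to 0.30 for IAA18, -0.095 to 0.29 for IAA20, -0.036 to 0.11 for IAA30, -0.23 to 0.18 for IAA31 and -0.039 to 0.31 for IAA33. Among pathway genes they ran from -0.036 to 0.18 for GH3.1, -0.19 to 0.0083 for GH3.9, -0.16 to 0.0083 for YUC6, -0.0010 to 0.18 for UGT84B1, -0.22 to 0.49 for DAO1 (AT1G14130), -0.22 to 0.10 for LBD16 and -0.77 to 0.30 for LBD29, while HAT2 (-1.004 to -0.43), GH3.17 (-0.59 to -0.32), YUC2 (-0.51 to -0.18) and YUC11 (-0.33 to -0.11) stayed below 0. The groups overlapped in every gene that changed sign, and what caused these changes was not tested. HAT2, GH3.17, YUC2 and YUC11 have groups that do not overlap, so leaving out 1 array could not turn their signs. The median difference of the 10 genes was -0.54 without the dimmest 30% of probe sets and -0.70 without the dimmest 50%, as 7 and 4 members were left. It was -0.097 without untreated replicate 1, -0.11 without dexamethasone replicate 1 and -0.038 without dexamethasone replicate 2. The mean over several probe sets was not run, as each member had 1. A floor at the control level moved IAA33 to 0.11. Signal near background limits IAA30, IAA31, IAA33 and YUC4, and IAA20 and IAA34 were dim as well.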
